A study of Mus musculus with 6 samples.

Results

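The genes described here run mitochondrial fusion and fission, measured in control mouse hearts and in hearts labelled as lacking the prolyl hydroxylases PHD2 and PHD3. They are 8 genes: Mfn1, Mfn2 and Opa1 for fusion, Oma1 and Yme1l1 for cleavage of the OPA1 protein, and Dnm1l, Fis1 and Mff for fission. They were found by matching the RefSeq accession of each non-control array probe to a gene symbol. The 8 genes had 13 probes among 55681 distinct probes, and all 8 were among the 20012 genes and unnamed features tested. All 13 probes passed the filter on dim probes, for which 1 group had to be well above background throughout, and all 13 were above background in all 6 hearts.

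The study put total RNA of single hearts on Agilent mouse arrays with 1 dye, using C57/B6 mice aged 8 weeks. Both groups carried floxed PHD2 and PHD3 alleles (PHD2/3f/f). The 3 control mice had no Cre recombinase (Cre-/-) and the other 3 were Cre+/-, called KO-labelled here. The labels give neither the Cre driver, nor the cells it acts in, nor the sex of the mice, and they name both a column kit for hearts and a blood kit with globin removal for the RNA. The series title concerns how these enzymes tune phospholamban through thyroid hormone receptor alpha, and the comparison of the groups asks what their loss changes in the heart.

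Mitochondria join and divide through large GTPases of the dynamin family. The mitofusins MFN1 and MFN2 tether and fuse the outer membranes, and OPA1 fuses the inner membranes and holds the cristae in shape. The proteases OMA1 and YME1L cut OPA1 into short forms, OMA1 when the membrane potential is lost and YME1L in unstressed cells. Division is carried out by DRP1, the product of Dnm1l, which adaptors such as MFF and FIS1 hold at the outer membrane. Cardiomyocytes are densely packed with mitochondria, and mouse hearts that lack both mitofusins or lack DRP1 are known to fail.

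In the KO-labelled hearts the 3 fusion genes, the protease gene Oma1 and the fission adaptor gene Mff fell, and Yme1l1, Dnm1l and Fis1 did not pass the test. Oma1 fell 2.37-fold, Mfn1 2.27-fold, Opa1 1.84-fold, Mfn2 1.80-fold and Mff 1.43-fold. Thus 5 of 8 genes were called lower and 0 higher, in a comparison where 23% of everything tested (22.9% of the genes with a symbol) was called lower, 16.1% higher and 39.1% in either direction. The groups did not overlap for 6 of the 8 genes, each with the KO-labelled hearts lower, against 33.1% of everything tested with that direction and 55.9% with either. The median log2 difference of the 8 genes was -0.68, against -0.11 for everything tested. Larger falls than that of Oma1 were seen in 5.60% of everything tested, than Mfn1 in 6.37%, than Opa1 in 11.6% and than Mfn2 in 12.2%. The test was limma's moderated test on log2 signals set relative to each array's 75th percentile signal, 2-sided, with Benjamini-Hochberg adjustment over all 20012 rows and a threshold of 0.05. The labels call the replicates biological, and having 3 hearts a group bounds the precision throughout.

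As for the series as a whole, the arrays had 46.3% to 51.0% of probes well above background, and 0 probes were saturated. The 6 arrays shared 1 slide and 1 scan time, but the groups sat in separate columns of the slide, so position and group cannot be told apart. The targeted gene Egln1 (PHD2) was lower in the KO-labelled hearts (log2 difference -1.23), while Egln3 (PHD3) was higher on both of its probes (1.98 and 1.87), against its label. Where these probes lie relative to the floxed exons was not analysed here. The direction of the whole comparison leaned on the scaling. Of all calls, 41.1% were higher as scaled here, 51.0% with the percentile taken over probes above background on all arrays, 55.3% after cyclic loess and 57.3% with the arrays set level on the E1A spike-in probes. Cyclic loess moved the median difference of everything tested by 0.14 and spike-in scaling by 0.23 on the log2 scale.

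Promoter windows of all 8 genes were found in RefSeq (GRCm38.p6), 13 windows of 300 bases in all, from 250 bases before a transcript's start to 50 after it. They are shown for the 3 fusion genes, which fell together, and for Fis1, which did not pass, so that motifs of known regulators of mitochondrial genes can be compared between them. Searched on both strands were the palindromic core of nuclear respiratory factor 1, CCGGAAGT, a core of ETS factors such as the Gabpa product, AAGGTCA, the core for estrogen-related receptors, and ACGTG and GCGTG, the cores for HIF. Capitals mark any match. The windows are Mfn1 at chr3:32529232-32529531 (plus strand), Mfn2 at chr4:147904612-147904911 (minus strand, 1 of its 3 windows, which overlap), Opa1 at chr16:29579084-29579383 (plus strand) and Fis1 at chr5:136953025-136953324 (plus strand, 1 of its 2 windows).
Mfn1: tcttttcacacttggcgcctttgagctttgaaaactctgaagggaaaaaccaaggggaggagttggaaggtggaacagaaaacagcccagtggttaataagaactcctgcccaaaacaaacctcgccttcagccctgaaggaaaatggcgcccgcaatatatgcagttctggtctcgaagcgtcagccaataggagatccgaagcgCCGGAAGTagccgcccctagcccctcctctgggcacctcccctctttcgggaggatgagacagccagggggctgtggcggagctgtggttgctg
Mfn2: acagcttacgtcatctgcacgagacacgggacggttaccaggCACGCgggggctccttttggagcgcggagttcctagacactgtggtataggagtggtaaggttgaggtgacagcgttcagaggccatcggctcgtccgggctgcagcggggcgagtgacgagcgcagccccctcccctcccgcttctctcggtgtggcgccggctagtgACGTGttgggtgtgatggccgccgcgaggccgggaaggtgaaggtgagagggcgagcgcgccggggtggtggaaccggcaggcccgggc
Opa1: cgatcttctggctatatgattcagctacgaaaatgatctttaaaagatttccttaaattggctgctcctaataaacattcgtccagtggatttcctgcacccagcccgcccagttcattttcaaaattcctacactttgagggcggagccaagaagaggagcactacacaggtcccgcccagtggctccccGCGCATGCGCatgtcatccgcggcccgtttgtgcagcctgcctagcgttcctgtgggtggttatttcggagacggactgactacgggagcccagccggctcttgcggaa
Fis1: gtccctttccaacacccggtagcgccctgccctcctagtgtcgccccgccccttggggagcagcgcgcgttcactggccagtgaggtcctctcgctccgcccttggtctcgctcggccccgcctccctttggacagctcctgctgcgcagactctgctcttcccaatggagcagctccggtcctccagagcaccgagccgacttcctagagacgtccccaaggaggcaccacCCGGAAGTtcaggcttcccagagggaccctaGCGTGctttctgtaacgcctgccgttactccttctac

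The Opa1 window held the nuclear respiratory factor 1 core, starting 59 bases before the transcript start, which 0.971% of all 32851 windows of this length held. The ETS core lay in the Mfn1 window, 44 bases before the start, in both Fis1 windows, in the one shown 18 bases before the start, and in 3.89% of all windows. A gene that fell and a gene that did not pass thus share it. The estrogen-related receptor core was in 0 of the 13 windows, against 4.72% of all windows. A HIF core was in 6 of the 13 windows, all those of Mfn2 and Dnm1l and 1 of Fis1, and in 43.8% of all windows. The windows of Mfn1, Opa1, Oma1, Yme1l1 and Mff held none of the HIF cores. A match or its absence is a description of these letters only.

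Both mitofusin genes fell. Mfn1 (NM_024200) read 5.51, 5.18 and 5.47 in control hearts (log2 above the 75th percentile signal) against 3.98, 4.34 and 4.28 in KO-labelled hearts. Every KO-labelled heart lay below every control heart, by more than the spread within either group. The means were 5.38 ± 0.18 and 4.20 ± 0.19 (SD, n = 3 each), a log2 difference of -1.18 ± 0.16 SE (limma adjusted p = 0.0038). The other Mfn1 probe had a log2 difference of -1.08 ± 0.19 SE. Mfn2 (NM_133201), whose product also ties mitochondria to the endoplasmic reticulum, read 6.32, 5.84 and 6.32 in control against 5.20, 5.29 and 5.44 in KO-labelled hearts. Control replicate 2 was the lowest control for both genes and still lay above all KO-labelled hearts. The Mfn2 means were 6.16 ± 0.28 and 5.31 ± 0.12 (SD, n = 3 each), a log2 difference of -0.85 ± 0.17 SE (limma adjusted p = 0.0109). The other Mfn2 probes had -0.92 ± 0.13 SE and -0.94 ± 0.12 SE, so that all 5 mitofusin probes were lower.

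Opa1 (NM_001199177), the inner membrane fusion gene, moved in the same direction. Its log2 signals were 3.93, 3.54 and 3.98 in control against 2.89, 3.03 and 2.88 in KO-labelled hearts, and the groups did not overlap. The means were 3.82 ± 0.24 and 2.93 ± 0.09 (SD, n = 3 each), a log2 difference of -0.88 ± 0.15 SE (limma adjusted p = 0.00728). The other Opa1 probe had -1.04 ± 0.20 SE. The array measures total transcript at each probe, so neither the splice forms of Opa1 nor the cleaved forms of its protein were seen.

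**Figure D1:**
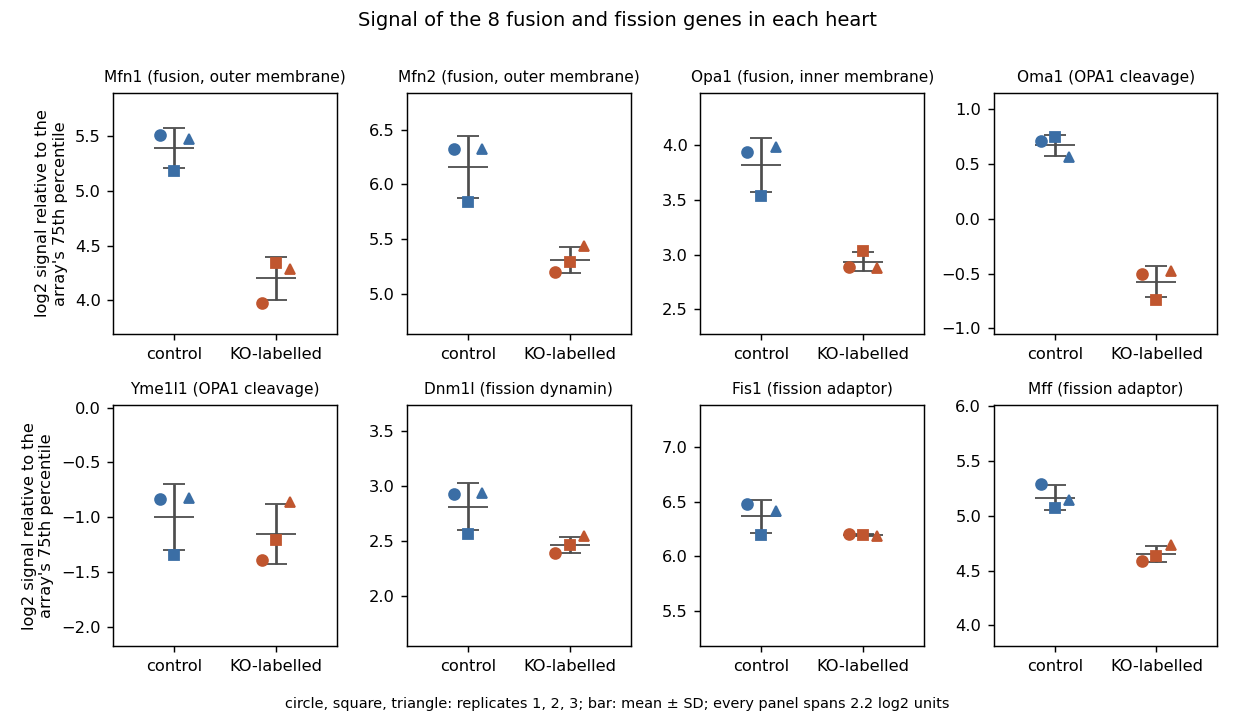
Log2 signal above or below the 75th percentile signal of its array (vertical axis) for each of the 8 genes in the 3 control and 3 KO-labelled hearts. Points are hearts and bars give the mean ± SD. Mfn1, Mfn2, Opa1, Oma1, Dnm1l and Mff have all KO-labelled hearts below all control hearts, and the groups overlap for Yme1l1 and Fis1.

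The genes of the OPA1 proteases differed from each other. Oma1 (NM_025909) read 0.71, 0.74 and 0.56 in control against -0.51, -0.74 and -0.48 in KO-labelled hearts. The groups lay far apart, and control replicate 2, the lowest control for the fusion genes, was the highest here. The means were 0.67 ± 0.10 and -0.57 ± 0.14 (SD, n = 3 each), a log2 difference of -1.25 ± 0.13 SE (limma adjusted p = 0.00234), the smallest p among the 8 genes. Yme1l1 (NM_013771) read -0.83, -1.35 and -0.82 in control against -1.39, -1.21 and -0.86 in KO-labelled hearts. These values overlapped, and control replicate 2 lay among the lowest KO-labelled hearts. Its log2 difference was -0.16 ± 0.21 SE, with a 95% interval from -0.65 to 0.34 (limma adjusted p = 0.578), so a fall as large as that of Oma1 lies outside the interval. Yme1l1 was read by 1 probe, whose signal of 79.0 to 109 lay below the 75th percentile of every array.

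Of the fission genes, Mff alone passed. Mff (NM_029409), the gene of the main DRP1 adaptor, read 5.29, 5.07 and 5.14 in control against 4.59, 4.63 and 4.73 in KO-labelled hearts, without overlap. The means were 5.17 ± 0.11 and 4.65 ± 0.08 (SD, n = 3 each), a log2 difference of -0.52 ± 0.12 SE (limma adjusted p = 0.0164). This call was lost without control replicate 1 (adjusted p = 0.0707), without control replicate 3 (adjusted p = 0.0611), without a filter on dim probes (adjusted p = 0.0737) and with spike-in scaling, where the log2 difference was -0.28 (adjusted p = 0.217).

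Dnm1l (NM_152816), the gene of the dividing GTPase itself, read 2.93, 2.57 and 2.94 in control against 2.39, 2.46 and 2.54 in KO-labelled hearts. The groups did not overlap, but control replicate 2 lay only just above KO-labelled replicate 3. The log2 difference was -0.35 ± 0.14 SE, with a 95% interval from -0.69 to -0.01 before adjustment, and it did not pass (limma adjusted p = 0.0952). It passed without control replicate 2 (log2 difference -0.47, adjusted p = 0.0225), with normexp background correction (-0.34, adjusted p = 0.0287) and with array weights (-0.38, adjusted p = 0.00412). Fis1 (NM_001163243), a small tail-anchored adaptor gene, read 6.48, 6.20 and 6.42 in control against 6.20, 6.20 and 6.18 in KO-labelled hearts. The KO-labelled hearts sat at the level of control replicate 2, and the SD was 0.15 in the controls and 0.01 in the KO-labelled hearts. Its log2 difference was -0.17 ± 0.12 SE, with a 95% interval from -0.46 to 0.12 (limma adjusted p = 0.29), and its other, much dimmer probe had 0.08 ± 0.13 SE. With array weights Fis1 passed at -0.24 (adjusted p = 0.0166). Array weights called 13711 of 20012 rows, against 7815 as fitted here, so a pass under them says little of either gene.

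**Figure D2:**
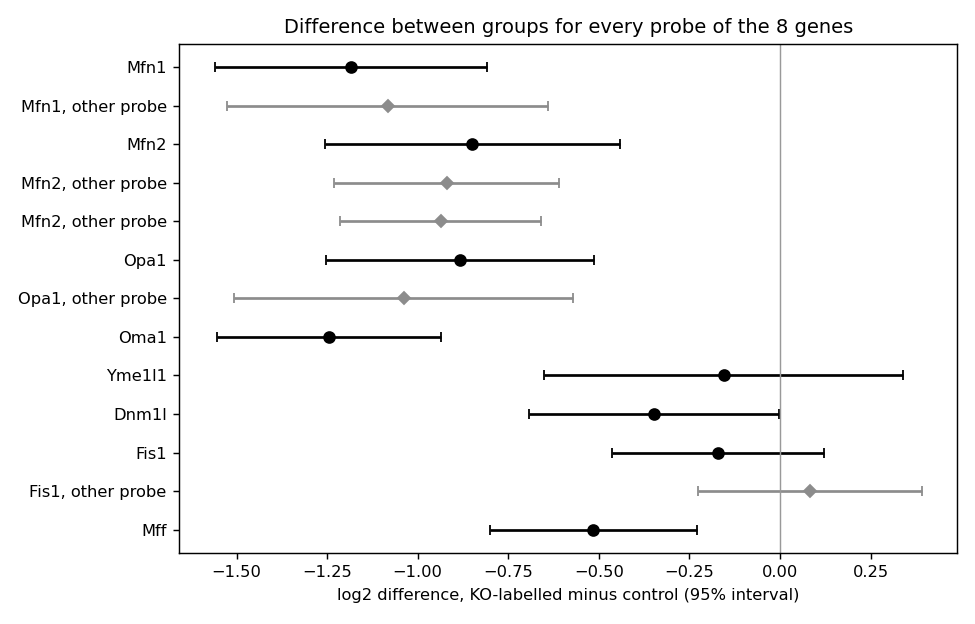
Log2 difference, KO-labelled minus control, with its 95% interval for each of the 13 probes (horizontal axis). Black circles are the probe used for the gene and grey diamonds the gene's other probes. The 9 probes of Mfn1, Mfn2, Opa1, Oma1 and Mff lie below 0 with their intervals, and the probes of Yme1l1 and Fis1 have intervals that include 0.

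The probes of a gene pointed the same way for Mfn1, Mfn2 and Opa1. When every probe was tested as its own row, 9 of the 13 were called lower and 0 higher. The 4 that did not pass were those of Yme1l1, Dnm1l and Fis1. In that fit 9949 of 26068 rows were called in either direction, and 39.6% of these calls were higher. The 9 lower probes include several of the same gene for Mfn1, Mfn2 and Opa1, so they do not stand for separate genes. Before any scaling between arrays, 8 of the 13 probes had all KO-labelled signals below all control signals, and these were the probes of Mfn1, Mfn2, Opa1 and Oma1. The share of all probes that separated in this way before scaling was not computed, so this count has no baseline. Unscaled, Mfn1 read 6713, 7256 and 6531 in control against 3713, 3781 and 3843 in KO-labelled hearts. For Mff the unscaled signal overlapped, at 5749, 6742 and 5206 in control against 5662, 4619 and 5260 in KO-labelled hearts, so the separation of Mff appears only after the arrays are set level.

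Differences between genes within a heart do not depend on how arrays are scaled by a constant, since the constant cancels. The within-heart log2 difference is described here, without a test, for 4 pairs of genes with like or opposed roles that were chosen after the values were seen. Oma1 minus Yme1l1 was 1.54, 2.09 and 1.38 in control against 0.89, 0.47 and 0.38 in KO-labelled hearts, a shift of -1.09. With normexp background correction, which is not a constant scaling, that shift was -0.75. Opa1 minus Dnm1l, the fusion against the fission dynamin, was 1.01, 0.97 and 1.04 in control against 0.50, 0.57 and 0.33 in KO-labelled hearts, a shift of -0.54. Mfn1 minus Mfn2 shifted by -0.33 and Mff minus Fis1 by -0.34. In each pair the first gene stood lower against the second in every KO-labelled heart than in any control heart. The gene with the larger fall was put first in each pair, so the shared direction follows from that order. The share of other gene pairs that separate in this way was not computed.

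The 8 genes were also set beside a list of 15 references for mitochondrial content, genes of abundant enzymes, channels, chaperones and import proteins. Of these 12 fell, 0 rose and 3 did not pass, with a median log2 difference of -1.03, so the list as a whole was lower than most of what was measured. Hspa9, the matrix chaperone gene, had a log2 difference of -1.07, Uqcrc2 of complex III -1.26, Ndufs1 of complex I -1.33 and Sdha of complex II -1.05, each without overlap. Tomm40 (-0.43), Tomm70a (-0.31) and Vdac2 (-0.24) did not pass. The mean log2 signal of the 15 references was 6.56 to 6.91 in the controls and 5.77 to 5.97 in the KO-labelled hearts.

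Against the mean of these references in the same heart, the 8 genes split. Mfn2 minus the references was -0.58, -0.73 and -0.57 in control against -0.57, -0.68 and -0.54 in KO-labelled hearts, a shift of 0.03 (exact permutation p = 0.6). Opa1 had a shift of -0.00136 (exact permutation p = 1). For both genes the hearts of the groups interleaved, and with normexp the Opa1 shift was -0.14. Mfn1 shifted by -0.30 without overlap, so it fell more than the mean of the references. As single genes, Ndufs1 (-1.33) and Uqcrc2 (-1.26) fell more than Mfn1 (-1.18), and the other references fell less. Oma1 shifted by -0.36 with overlap (exact permutation p = 0.2). The Oma1 shift was -0.10 with normexp background correction. Fis1 minus the references rose from -0.43, -0.37 and -0.47 in control to 0.43, 0.23 and 0.21 in KO-labelled hearts, a shift of 0.71. Yme1l1 shifted by 0.73, Dnm1l by 0.53 and Mff by 0.37. Thus every fission gene and Yme1l1 stood higher against the mean of the references in all KO-labelled hearts than in any control heart. As single genes, the references Tomm70a (-0.31) and Vdac2 (-0.24) fell less than Mff (-0.52) and Dnm1l (-0.35). Tomm20 (-0.43) and Tomm40 (-0.43) also fell less than Mff. Only Fis1 (-0.17) and Yme1l1 (-0.16) fell less than every reference. With quantile scaling the Yme1l1 shift was 0.54 and the Dnm1l shift 0.43, and with normexp the Dnm1l shift was 0.44. The shifts without overlap had p = 0.1 in the 2-sided exact permutation test, the smallest that 3 hearts against 3 can give, and 0.16 after adjustment over the 8 genes. Which genes count as references was chosen with earlier results of these data known.

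**Figure D3:**
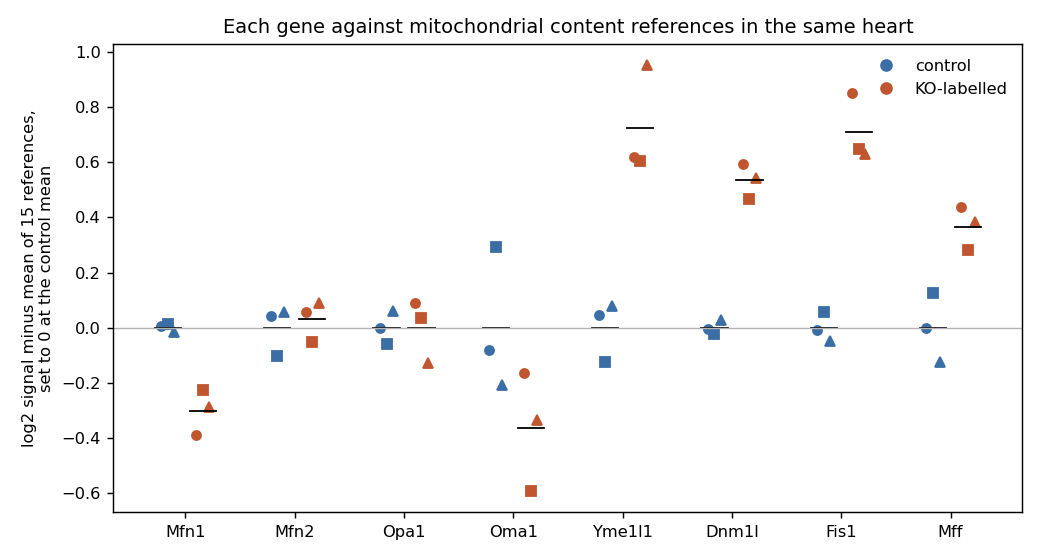
Log2 signal of each gene minus the mean of 15 mitochondrial content references in the same heart, set to 0 at the control mean (vertical axis). Points are hearts, 3 per group, and lines are group means. KO-labelled hearts lie around the control level for Mfn2 and Opa1 (whose shift was -0.14 with normexp), below it for Mfn1, and 0.37 to 0.73 above it on average for Mff, Dnm1l, Fis1 and Yme1l1.

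Helpers of fusion and of OPA1 processing mostly fell. Of 12 measured genes 9 fell, 0 rose and 3 did not pass, with a median log2 difference of -0.71. The falls include Pld6 (-1.64), which only 2 of the 3 KO-labelled hearts showed clear of background. Pld6 entered the test through the control arrays alone, so the size of its fall is not well measured (-1.90 to -0.67 over 21 alternatives). With every array required to pass the filter, 11 genes remained and 8 of them fell, with a median of -0.69. Phb1 and Phb2, the prohibitin genes whose proteins scaffold the inner membrane and protect long OPA1, had -1.02 and -0.95. Dele1, whose product carries the OMA1 stress signal to the cytosol, had -1.55, and Opa3, linked to optic atrophy like OPA1, had -0.88. Stoml2 (-0.45), Afg3l2 (-0.35) and Miga1 (-0.18) did not pass. Without control replicate 3 the list had 5 falls.

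Helpers of fission fell in part. Of 15 tested among 16 listed genes, 6 fell, 1 rose and 8 did not pass, with a median log2 difference of -0.27. For everything tested the shares were 23% lower and 16.1% higher. Mtfp1, an inner membrane fission gene, read 7.62, 7.04 and 7.45 in control against 4.72, 5.69 and 5.41 in KO-labelled hearts, a log2 difference of -2.10 ± 0.28 SE (limma adjusted p = 0.00389). This was a fall larger than that of any of the 8 core genes. Mief2, which encodes the DRP1 receptor MiD49, had -1.54, Mtfr1 -0.80 and its relative Mtfr1l -0.67. The rise was in Spire1, an actin nucleator gene, with 0.68, and it was lost without control replicate 1, without KO-labelled replicate 3, with normexp (0.23) and with dim probes kept. Mief1, the gene of the related receptor MiD51, had -0.15 and did not pass (adjusted p = 0.344). The list had 3 falls without control replicate 1 and 3 without control replicate 3.

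Genes of cristae organisation, the inner membrane folds that OPA1 also shapes, fell in 8 of 11 cases, with 0 rises and a median log2 difference of -0.76. The MICOS genes Apoo (-1.18), Immt (-1.08) and Chchd3 (-1.16) and the outer membrane insertase gene Samm50 (-1.001) were among them, while Apool (-0.50), Mtx1 (-0.29) and Chchd6 (0.27) did not pass, and the list had 5 falls without control replicate 1 and 5 without control replicate 3. Of 6 genes of cardiolipin synthesis, the lipid that OPA1 binds during fusion, only Tafazzin, the remodelling enzyme gene, fell (-0.83), while Ptpmt1 (-0.26), Lclat1 (-0.33), Pgs1 (0.26), Crls1 (-0.24) and Tamm41 (-0.14) did not pass. That list had a median of -0.25, and 2 falls without control replicate 2. For comparison, 23% of everything tested was called lower with all hearts kept.

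Transport of mitochondria along the cytoskeleton held both directions. Of 8 tested among 9 listed genes 2 fell, 2 rose and 4 did not pass, with a median log2 difference of 0.03. Of everything tested, 23% was called lower and 16.1% higher, so these counts do not set the list apart. Rhot2 and Rhot1, which encode the Miro GTPases that link mitochondria to motors and bind mitofusins, had -1.47 and -0.54. Mgarp, a mitochondrial protein gene, read -3.37, -2.82 and -4.32 in control against 0.89, 1.73 and 1.48 in KO-labelled hearts, so every KO-labelled heart lay above every control heart. It was well above background on 1 of 3 control arrays and entered the test through the KO-labelled arrays alone, where it was high, so the size of its difference is not well measured (4.87 as fitted, 2.58 with normexp). Among the 6 listed genes above background on all arrays, 2 fell and 1 rose. Trak2 (-0.09), Myo19 (0.09), Kif5b (0.05) and Trak1 (0.01), motor and adaptor genes, did not pass. Armcx3 rose by 0.69 and its call was lost without control replicate 1 and without control replicate 3. The Rhot1 call was lost under 9 of 22 alternatives, which include leaving out each heart except control replicate 2, and the list then had 1 fall.

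Among 9 regulators of mitochondrial biogenesis, 6 fell, 0 rose and 3 did not pass, with a median of -0.79, where 23% of everything tested was called lower. Ppargc1a, which encodes the coactivator PGC-1 alpha, had -1.84, Tfam, the mitochondrial DNA factor gene, -0.75, Esrrg -0.92 and Ppara -1.57. Nrf1 (0.36), Ppargc1b (-2.15, adjusted p = 0.0713) and Yy1 (0.02) did not pass. Ppargc1b was dim, at -5.54, -2.39 and -2.64 in the KO-labelled hearts, of which only 2 showed it clear of background. Ppargc1b entered the test through the control arrays alone. Its difference ran from -2.71 to -0.72 over 21 alternatives, of which 5 passed, so its size is not well measured. The list had 3 falls without control replicate 1 and 3 without control replicate 3.

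**Figure D4:**
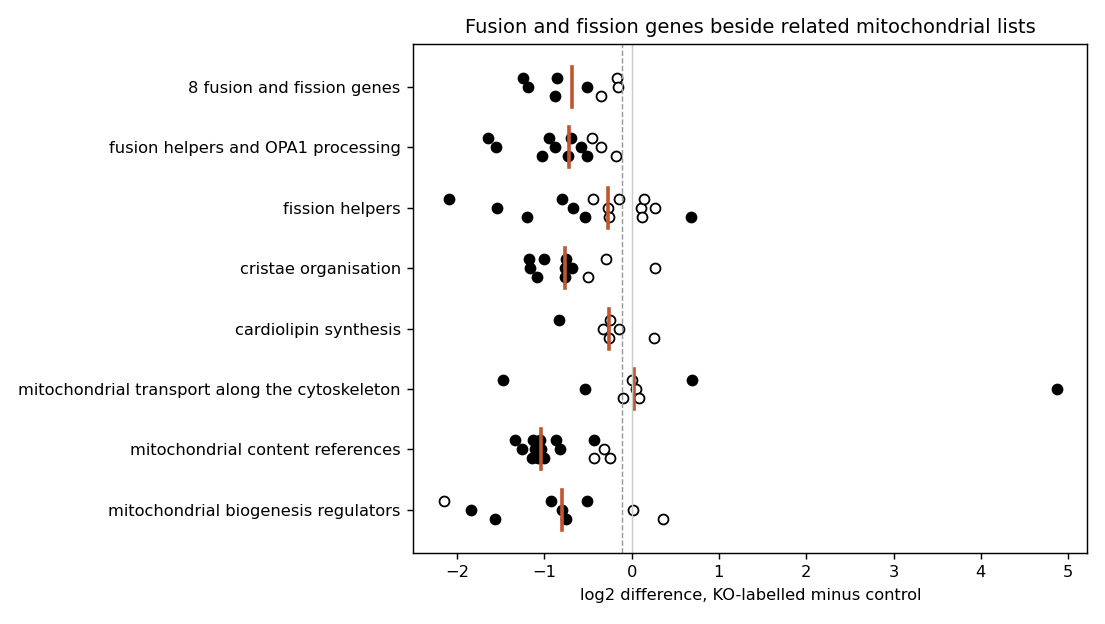
Log2 difference, KO-labelled minus control (horizontal axis), of the 8 fusion and fission genes and of the tested genes of 7 related lists. Filled points passed an adjusted p of 0.05, orange bars are list medians and the dashed line is the median of everything tested, -0.11. The 8 genes have a median of -0.68, the fusion helpers -0.71, the fission helpers -0.27 and the content references -1.03.

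RNA of cell type markers moved with the groups, and its part in these results was not tested. No cells were counted, and in whole hearts fewer cells of a type and less RNA per cell cannot be told apart. Of 8 cardiomyocyte markers 7 fell, with a median log2 difference of -0.70, and their mean log2 signal was 9.32 to 9.74 in the controls and 8.61 to 8.96 in the KO-labelled hearts. The falls numbered 2 after quantile scaling, after cyclic loess, without control replicate 1, without control replicate 3 and without KO-labelled replicate 1, 3 without KO-labelled replicate 3, and 4 with spike-in scaling. Tnni3 and Ryr2 passed under each of these. The tissue label was met by its defining genes, since Myh6, Actc1, Myl2 and Tnni3 were all well above background on all arrays. Of 8 fibroblast markers 6 rose, including Postn (4.63), Col1a1 (2.64), Col1a2 (2.02) and Col3a1 (2.16), while Pdgfra (0.33) and Dcn (-0.23) did not pass, with mean signals of 3.65 to 4.83 in the controls and 5.64 to 5.84 in the KO-labelled hearts. There were 3 fibroblast rises without control replicate 1, without control replicate 3 or without KO-labelled replicate 3, and 4 without KO-labelled replicate 1, with Postn, Col1a1 and Col1a2 among them each time. Control replicate 2 had the highest fibroblast signal among the controls. After scaling it also had the lowest fusion gene signal. Its mean for Mfn1, Mfn2 and Opa1 was 4.85 against 5.26 in both other controls. Its 75th percentile, which scaling subtracts, was a signal of 201 against 147 and 148. On the probes used, before scaling, it was the highest control for Mfn1 (7256 against 6713 and 6531) and Opa1 (2329 against 2253 and 2326). For Mfn2 it was the lowest (11484 against 11811 and 11780).

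Other cell type lists were mixed. Of 5 tested macrophage markers Adgre1 (1.88), Csf1r (0.95) and C1qa (1.05) rose, Cd163 fell (-0.95) and Mrc1 (0.70) did not pass, with mean signals of 2.04 to 2.72 in control and 2.75 to 3.32 in KO-labelled hearts. Only 1 macrophage marker, Adgre1, rose without control replicate 1 or without control replicate 3, and 2 rose without KO-labelled replicate 1 or 3. The Cd163 fall was lost without control replicate 3 and without KO-labelled replicate 1 or 3. Of 6 smooth muscle and pericyte markers Cnn1 (3.06) and Cspg4 (0.92) rose and Rgs5 (-0.75) and Myh11 (-0.75) fell, and 0 fell without control replicate 1, without control replicate 3 or with spike-in scaling. Of 3 tested lymphocyte markers Ptprc (1.52) and Cd3d rose, and Cd3e (0.23) did not pass. Cd3d was above background on 1 of 3 control arrays and entered through the KO-labelled arrays, and its difference ran from 1.20 to 3.99 over 21 alternatives, of which 12 passed. Neither Ptprc nor Cd3d passed without control replicate 1, without control replicate 3 or without KO-labelled replicate 2. Of 6 endothelial markers 0 passed, with Tek at -0.69 and Pecam1 at -0.53, and of 4 adipocyte markers 0 passed, with Fabp4 at -0.32 and Plin1 at 0.91, and with control replicate 3 (mean 2.69) and KO-labelled replicate 2 (mean 4.37) above the other hearts. Of 2 tested erythroid markers 0 passed, with Hba-a1 at -0.40 and Alas2 at -0.34. Of the fast skeletal muscle markers Tnnt3 was higher, by 3.99 to 5.99 over 21 alternatives, with 2 of 3 control arrays above background, so that it entered through the KO-labelled arrays alone, while Myh4, Myh1, Mylpf and Actn3 did not pass the filter on dim probes.

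Across the 6 hearts, the log2 pattern of Oma1 was most like those of Klhdc2 (Pearson r = 0.999), Smim7 (r = 0.998) and Vps25 (r = 0.998) among 13184 other genes with a symbol. These are descriptions over 6 points that share their arrays and 2 groups. Klhdc2 had a log2 difference of -0.82, Smim7 of -0.46 and Vps25 of -0.49.

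**Figure D5:**
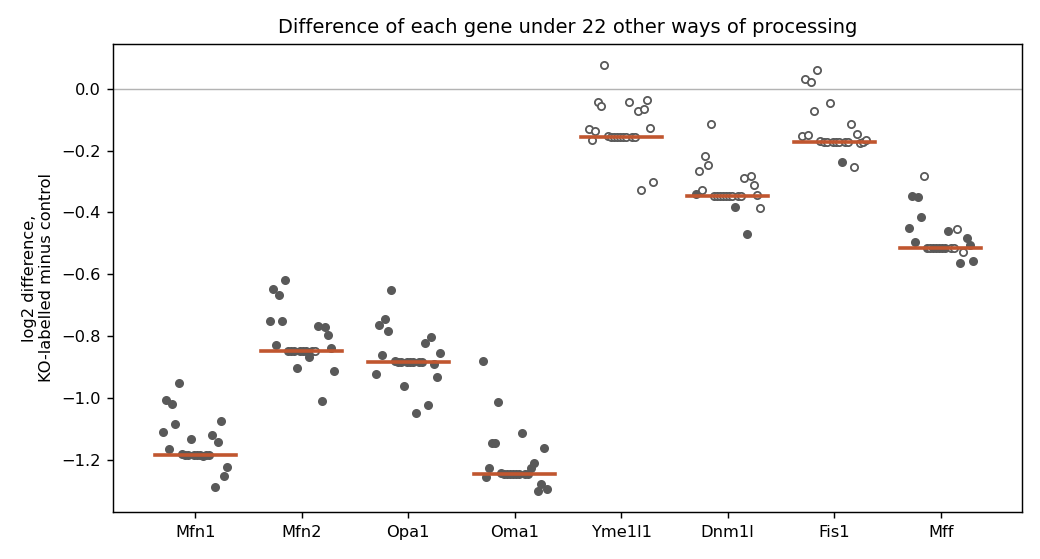
Log2 difference, KO-labelled minus control (vertical axis), of each of the 8 genes under 22 other ways of processing, including leaving out each heart. Filled points passed the test, open points did not, and orange bars are the values as reported. Mfn1, Opa1 and Oma1 passed under all 22, Mfn2 under 21, Mff under 16, Dnm1l under 3, Fis1 under 1 and Yme1l1 under 0. The Fis1 pass and 1 of the Dnm1l passes were with array weights, which called 13711 of 20012 rows.

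The fusion genes and Oma1 were below 0 under all 22 alternatives, but their order by size was not fixed. With normexp Oma1 (-0.88) fell less than Mfn1 (-1.11) and Opa1 (-0.92). Over the 22 alternatives, Mfn1 lay between -1.29 and -0.95, Oma1 between -1.30 and -0.88, Opa1 between -1.05 and -0.65 and Mfn2 between -1.01 and -0.62. Mfn2 missed the threshold only where that was set to 0.01. The differences of Yme1l1 and Fis1 lay on both sides of 0, between -0.33 and 0.08 and between -0.25 and 0.06, so their direction depends on the processing. Dnm1l was below 0 under all 22, between -0.47 and -0.12.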

How the data were processed

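Gene expression was measured on 6 Agilent 1-colour arrays, 3 per group. The deposited scanner files give intensity values per spot on a linear scale, made with Agilent Feature Extraction 11.0.1.1 per the file headers, background-subtracted and not scaled between arrays. The deposited value table is on the log2 scale. The submitters' processing notes name R 3.1.3 too, no source used here states its normalization, and it served only as an alternative.

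The processed signals were put on the log2 scale, outlier-flagged spots were left out (73 probes lost), spots of a probe were averaged, and each array's 75th percentile, a signal of 147 to 235, was subtracted. RefSeq accessions were matched to symbols through a RefSeq table (26582 probes named, 29099 not). A probe was kept if all arrays of either group had it well above background, and the probe with the highest mean stood for its gene. The test was limma 3.58.1 (R 4.3.3), checked on simulated data. No probe sequence, probe position or protein table was used.

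Named are all 8 genes, the targeted genes, and from each list up to 4 passing genes with the smallest p, or the 2 smallest p where fewer than 2 passed, and whole counts of up to 5. Mief1, Myh6, Pld6 and the pairs of genes compared within hearts were chosen after their values were seen. The members and lists were chosen with earlier results of these data known. Lists are described by counts and medians, without a list test. Tafazzin, Phb1 and Atp5f1a were looked up as Taz, Phb and Atp5a1. The files lack the mean spot signal planned for normexp (offset 50), so the median spot signal was used.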

Additional observations from a re-analysis of the deposited data

How the results depend on the processing

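Of the 8 genes, 5 were called lower under most alternatives, 6 with normexp and 7 with array weights, and 4 with spike-in scaling, without a filter or with the replicate block. The count was 3 at a threshold of 0.01 and 4 to 6 when single hearts were left out, and 0 genes were called higher under any alternative. With the replicate block Mff did not pass (adjusted p = 0.0572), while the calls of the other 7 genes stayed as they were. All calls over 20012 rows numbered 7815, and 4345 without a filter on dim probes (with 37174 rows), 13711 with array weights, whose estimation stopped short of its tolerance, 4859 with the replicate block, 3106 at a threshold of 0.01, and 3904 to 8690 with single hearts left out, lowest without control replicate 1 (3904) and control replicate 3 (4019), and 5109 without KO-labelled replicate 3. Same-numbered hearts did not deviate together (correlations of -0.15, -0.12 and -0.08), and those with unlike numbers ran from -0.17 to 0.26. With 3 hearts a group this cannot settle whether the numbers pair them. Of the probes that stood for the 8 genes, Yme1l1 (signal 79.0 to 109) and Oma1 (112 to 336) were the dimmest. The causes of these changes were not tested.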
